A study of Mus musculus with 2 samples.

Results

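Uts2, Tnfrsf26 and Ccbe1 are 3 of the 19465 genes measured in sections of mouse pancreatic tumors, and they were chosen by their measured values. Outside spots of normal exocrine pancreas, and among genes with at least 50 unique molecular identifiers (UMIs) per 1000000 UMIs (CPM) in the higher library, they had the 3 lowest ratios of the library labelled KPC-shZEB1 over the library labelled KPC-shV. That difference between the libraries is therefore a description and not a finding. The rule of choice did not use where each gene lay within a section, which genes it went along with, or what its pathway and genomic neighbors did. The members and lists were, however, chosen with earlier results of these data known, so these descriptions are not independent of the data. Placement and following genes are also tied to the ratio itself, since the sections differed in their content of marker genes of several tissues.

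KPC is a mouse pancreatic cancer line from mice that carry Pdx-1-Cre, which drives recombination in the pancreas. KPC-shV cells carry a control vector and KPC-shZEB1 cells a short hairpin RNA against Zeb1, a transcription factor that represses epithelial genes. Cells of either kind were injected into the pancreas of mice, which the methods give as 4 to 6 weeks old. The paper gives gemcitabine for the tumors used here, although the sample labels do not name it. The labels give 2 tumors per group, while there is 1 library per group, and neither source says which tumor a library covers. With 1 library on each side there were no replicates and no test. All intervals are at the 95% level and cover counting error only, and the spots of a section are not replicates.

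Uts2 encodes urotensin II, a small secreted peptide that constricts vessels through the receptor encoded by Uts2r. Tnfrsf26 lies in a mouse cluster of TNF receptor genes beside Tnfrsf22 and Tnfrsf23, whose products bind the death ligand TRAIL as decoys. Ccbe1 encodes a secreted extracellular matrix protein that, with the protease encoded by Adamts3, brings about the activation of VEGF-C, the main growth factor of lymphatic vessels. The 3 genes share no pathway.

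Each spot of the Visium CytAssist assay counts probes from a patch of tissue wide enough for several cells, often of more than 1 type. The section labelled KPC-shZEB1 gave 140493626 UMIs over 2220 spots and the one labelled KPC-shV 172059528 UMIs over 3552 spots, with medians of 59957.5 and 52544.5 UMIs per spot. The libraries shared 1718 spot barcodes, which mark slide positions and not cells. Acinar-rich spots, with over 20% of UMIs from digestive enzyme genes, numbered 759 and 251, respectively, and were left out unless stated. This left 1461 and 3301 spots, and 13 and 31 of all spots lay within 10% of the limit on either side. Over the 14383 genes that reached 100 UMIs in each library the median log2 ratio was then -0.02. Outside acinar-rich spots Zeb1, the targeted gene, was not lower under its label. It stood at 15.6 CPM in the section labelled KPC-shZEB1 and 12.7 CPM in the section labelled KPC-shV (log2 ratio 0.30, interval 0.20 to 0.40). Over all spots its log2 ratio was -0.20. The paper shows a knockdown efficiency of Zeb1 in KPC cells and Zeb1 staining of tumor tissues, neither of which is read here. A spot does not separate the injected cells from those of the host, so these levels do not measure the knockdown in the injected cells. Every direction given here is between libraries as labelled.

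The level of Uts2 was 6.33 CPM (541 UMIs, interval 5.81 to 6.89) where the label is KPC-shZEB1. It was 58.0 CPM (9596 UMIs, 56.8 to 59.1) where the label is KPC-shV. This is 9.16-fold higher in the latter, a log2 ratio between the libraries, with KPC-shV as the divisor, of -3.19 (-3.32 to -3.07). Tnfrsf26 stood at 17.9 CPM (1530 UMIs, 17.0 to 18.8) and 105 CPM (17377 UMIs, 103 to 107), respectively, a log2 ratio of -2.55 (-2.63 to -2.48). Ccbe1 stood at 16.6 CPM (1420 UMIs, 15.8 to 17.5) and 89.7 CPM (14847 UMIs, 88.2 to 91.1), a log2 ratio of -2.43 (-2.51 to -2.35). All 3 were thus measured well above the 10 genes of retina, testis, heart, kidney and other tissues that were not expected here, which ranged from 0.538 to 1.54 CPM. With acinar-rich spots included, the log2 ratios were -3.81 for Uts2, -3.14 for Tnfrsf26 and -2.71 for Ccbe1.

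**Figure D1:**
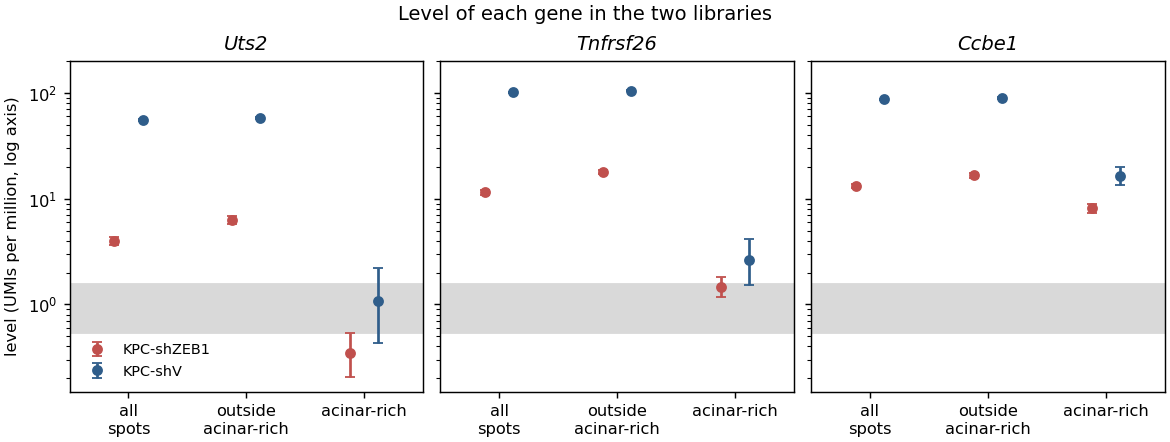
Level of each gene in CPM on a log axis, over all spots, outside acinar-rich spots and in acinar-rich spots of the library labelled KPC-shZEB1 (red) and the library labelled KPC-shV (blue), with exact Poisson 95% intervals for counting error. The gray band runs from 0.538 to 1.54 CPM, the range of 10 genes not expected in this tissue, taken outside acinar-rich spots. Uts2 in acinar-rich spots lies in or under this band, whereas Ccbe1 lies above it.

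These were ranks 1, 2 and 3 of 4998 genes, of which 6 (0.12%) had a log2 ratio below -2 and 98 (1.96%) one below -1. Just outside the 3 lay Hilpda, a lipid droplet gene, at -2.25, Cldn6, a tight junction gene, at -2.17 and Vegfa, the vessel growth factor, at -2.08. They were followed by Atp2c2 at -1.98, Ptgs2 at -1.97, Acsbg1 at -1.96 and Prss22 at -1.96. The limit between members and other genes is thus a rank and not a gap in the values.

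In acinar-rich spots, Uts2 stood at 0.345 CPM (19 UMIs) and 1.08 CPM (7 UMIs) in the libraries labelled KPC-shZEB1 and KPC-shV. These levels lay under or within the range of the genes not expected here, which was taken outside acinar-rich spots. Tnfrsf26 stood there at 1.47 CPM (81 UMIs) and 2.61 CPM (17 UMIs). Ccbe1 stood at 8.12 CPM (447 UMIs, 7.39 to 8.91) and 16.3 CPM (106 UMIs, 13.3 to 19.7), above that range in both libraries. Against a range taken in other spots, Uts2 was thus not higher in acinar-rich spots, while Ccbe1 was. The background inside acinar-rich spots was not measured, and these spots can also hold RNA of other cells.

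Within the library labelled KPC-shZEB1 the UMIs of Uts2 lay in few spots. Its median over spots was 0 CPM, its upper quartile was also 0 CPM and its highest spot reached 236 CPM (12 UMIs at most in a spot), and the 5% of spots with the highest level, 73 spots with 5.07% of all UMIs, held 43.6% of its UMIs. The same share of spots held 33.2% of the UMIs of Ccbe1 and 21.8% of those of Tnfrsf26. The medians in the library labelled KPC-shV were 30.6 CPM for Uts2, 72.8 CPM for Tnfrsf26 and 65.7 CPM for Ccbe1, the highest spots reached 1377, 2316 and 1484 CPM, and the 165 highest spots held 17.4%, 11.3% and 12.2% of the UMIs. Shares of this kind also rise as counts fall, and the libraries were not compared by them.

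Detection was compared after thinning every spot at random to 5000 UMIs, which left out 4 spots labelled KPC-shZEB1 and 174 labelled KPC-shV. Uts2 was detected in 39 of 1457 spots (2.68%, exact binomial interval 1.91% to 3.64%) of the section labelled KPC-shZEB1 and in 701 of 3127 (22.4%, 21.0% to 23.9%) of the section labelled KPC-shV. Ccbe1 was detected in 97 (6.66%, 5.43% to 8.06%) and 1008 spots (32.2%, 30.6% to 33.9%), respectively. Tnfrsf26 was detected in 149 (10.2%, 8.72% to 11.9%) and 1131 spots (36.2%, 34.5% to 37.9%), but the first share was a high draw, since the average over all random thinnings was 8.09%. The genes not expected here were detected in 0.275% to 0.927% of spots at this depth, so that each member exceeded them in both libraries. Without thinning the shares were 22.7% and 66.1% for Uts2, 53.1% and 79.5% for Tnfrsf26 and 43.3% and 77.6% for Ccbe1.

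At a deeper limit the libraries kept their order for each gene. At 20000 UMIs, which 1408 and 2671 spots reached, Uts2 was found in 10.3% and 53.0%, Tnfrsf26 in 25.5% and 70.9% and Ccbe1 in 23.4% and 66.5% of spots. At that depth all 3 genes were found together in 7 spots (0.497%) of the library labelled KPC-shZEB1 and none of them in 741 (52.6%). All 3 were found together in 946 spots (35.4%) of the library labelled KPC-shV and none in 321 (12.02%). Tnfrsf26 was found there in 81.2% of the 1415 spots with Uts2 and in 59.4% of the 1256 spots without it. The same shares were 27.6% of 145 spots and 25.3% of 1263 spots in the library labelled KPC-shZEB1, close to each other. By depth in the library labelled KPC-shV, Uts2 stood at 62.1 CPM (interval 41.9 to 88.6) in the 174 spots under 5000 UMIs, 48.8 CPM in spots of 5000 to 20000 UMIs, 63.5 CPM in those of 20000 to 50000 and 57.1 CPM in those above. Tnfrsf26 was higher in the shallowest spots, at 168 CPM (133 to 208), than in the 3 deeper classes, at 99.3, 102 and 106 CPM. Ccbe1 stood at 101 CPM (75.02 to 134) in the shallowest spots and at 93.7, 105.3 and 86.1 CPM in the deeper ones.

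To describe tumor spot types, spots were ranked within each library by their share of UMIs from each of 15 marker lists, and the level in the top 20% (292 and 660 spots, called list-rich) was set against that in the other 80%. A list-rich set is a range cut from a score and not a cell type. Some limits were low, given here for KPC-shZEB1 and then KPC-shV. They were 20.9 and 16.5 CPM for the islet list and 21.6 and 12.1 CPM for the adipocyte list. Schwann and nerve limits were 43.4 and 32.7 CPM and B cell limits 43.2 and 18.8 CPM. A few UMIs can place a spot in such a set. T cell limits were unlike, at 169 and 38.6 CPM. With the label KPC-shV, 51.2% of epithelium-rich spots were also hypoxia-rich and 71.1% of hypoxia-rich spots were also neutrophil-rich, while 0.606% of hypoxia-rich spots were also fibroblast-rich. With the label KPC-shZEB1 the first 2 overlaps were 37.0% and 19.5%, so the sets do not hold like spots in both sections. Near the limits, 653 of the spots labelled KPC-shV lay within 10% of the tumor epithelium limit and 144 within 10% of the hypoxia limit. A higher level in such a set may come from more cells of a type or from more RNA per cell, which cannot be told apart.

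In the library labelled KPC-shV, all 3 genes had a higher level in the same 3 list-rich sets, those of the hypoxia, neutrophil and tumor epithelium lists, and in no other of the 15. The share of all genes with this placement was not counted. The hypoxia and neutrophil lists were themselves lower in the library labelled KPC-shZEB1 (log2 ratio -1.24 each). Genes chosen as low in that library are thus not placed independently of the choice. Uts2 stood at 127 CPM in hypoxia-rich spots and 48.8 CPM in the others (log2 ratio 1.38, interval 1.31 to 1.44). Ccbe1 stood at 154 and 81.2 CPM (0.92, 0.87 to 0.98) and Tnfrsf26 at 157 and 98.1 CPM (0.68, 0.62 to 0.74). The hypoxia list holds targets of the low oxygen response such as Car9, Slc2a1 and Adm, and also Vegfa. These spots were shallower, with a median of 27169.5 UMIs against 60754.

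Neutrophil-rich spots, defined by genes such as S100a8 and Cxcr2, gave log2 ratios of 1.097 for Uts2, 0.70 for Tnfrsf26 and 0.57 for Ccbe1. Their median depth was 20813 UMIs against 61063, and most were the hypoxia-rich spots already described. Epithelium-rich spots, defined by genes such as Epcam and Krt19, gave 1.07 for Uts2, 0.41 for Tnfrsf26 and 0.41 for Ccbe1 at similar depths of 52544.5 and 55542 UMIs. In stromal spots the levels were lower. Uts2 stood at 12.6 CPM in fibroblast-rich spots (log2 ratio -2.34, -2.53 to -2.15) and 14.7 CPM in macrophage-rich spots (-2.12). Of the fibroblast-rich spots 80.8% were also macrophage-rich, and they were shallower, with a median of 25653 UMIs against 60757. The log2 ratio in fibroblast-rich spots was -1.21 for Tnfrsf26 and -0.56 for Ccbe1, and both had their lowest ratios in mesothelial-rich spots, at -1.32 and -1.38. Among spots with at least 20000 UMIs the fibroblast ratio was -1.98 for Uts2 and -0.84 for Tnfrsf26. The neutrophil ratio of Tnfrsf26 was 0.45 among those spots.

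In the library labelled KPC-shZEB1 no list-rich set had all 3 ratios above 0 with their intervals. All 3 ratios were above 0 in epithelium-rich (Uts2 1.77, Tnfrsf26 0.03, Ccbe1 0.57) and neutrophil-rich spots (0.44, 0.15 and 0.03). The intervals of Tnfrsf26 in both sets and of Ccbe1 in the latter reached 0. Counts were fewer in this library than in the other, so its intervals were wider. All 3 genes were lower in proliferation-rich spots, defined by genes such as Mki67, in both libraries, with log2 ratios of -0.68 for Uts2, -0.35 for Tnfrsf26 and -0.52 for Ccbe1 where the label is KPC-shZEB1 and -0.53, -0.24 and -0.56 where it is KPC-shV. Islet-rich spots, set by a low limit, also had lower levels of all 3 genes. The log2 ratios were -0.69, -0.22 and -0.27 where the label is KPC-shZEB1 and -0.33, -0.35 and -0.09 where it is KPC-shV. These spots were shallower, with median depths of 43103.5 against 61043 UMIs and 38951 against 59320 UMIs, respectively. Uts2 was again higher in epithelium-rich and hypoxia-rich spots, at 13.7 CPM in epithelium-rich spots against 4.004 CPM in the other spots (log2 ratio 1.77, 1.52 to 2.02) and 12.8 against 4.83 CPM in hypoxia-rich spots (1.41, 1.15 to 1.66). It was also higher in neutrophil-rich (0.44), mesothelial-rich (0.45) and Schwann cell and nerve-rich spots (0.39). Of those mesothelial-rich spots 51.4% were also epithelium-rich, against 23.9% in the library labelled KPC-shV, and the part of this in the ratio was not tested. At 1.88 CPM Uts2 was close to the range of genes not expected here in macrophage-rich spots (-1.95). Ccbe1 was higher in epithelium-rich spots (22.1 against 14.9 CPM, log2 ratio 0.57) and, by a small margin, in hypoxia-rich spots (18.6 against 16.1 CPM, 0.21, 0.02 to 0.39).

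Tnfrsf26 had another place than in the library labelled KPC-shV. With the label KPC-shZEB1 it was lower in hypoxia-rich spots, at 14.1 CPM against 18.8 CPM (log2 ratio -0.41, -0.62 to -0.20), and level with the other spots in epithelium-rich ones, at 18.2 against 17.8 CPM (0.03, -0.14 to 0.20). It was higher in macrophage-rich spots, at 24.0 against 16.7 CPM (0.52, 0.35 to 0.70), in T cell-rich spots, at 23.9 against 16.7 CPM (0.52), and in endothelial-rich spots, at 22.7 against 17.0 CPM (0.42). Each of these 3 ratios was below 0 in the library labelled KPC-shV, at -0.96, -0.72 and -0.75. They were closer to 0 in spots with at least 20000 UMIs, at -0.56, -0.62 and -0.70. The 3 sets shared many spots where the label is KPC-shZEB1, so their ratios are not separate results. Of the macrophage-rich spots there, 51.7% were also T cell-rich and 51.4% endothelial-rich. Of the T cell-rich spots 43.2% were also endothelial-rich. T cell-rich spots were cut at 169 CPM in the section labelled KPC-shZEB1 and at 38.6 CPM in the other. At one limit for both, the T cell ratios were 0.39 and -0.87. No test of the difference between the sections could be made with 1 library each. With one limit for both libraries, which left 51 hypoxia-rich spots labelled KPC-shZEB1, the hypoxia ratio was -0.15 (-0.64 to 0.31), and with the top 10% of spots the endothelial ratio was 0.26 (-0.02 to 0.52), so that both intervals reached 0. The macrophage and T cell ratios labelled KPC-shZEB1 stayed above 0 with their intervals under these alternatives.

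**Figure D2:**
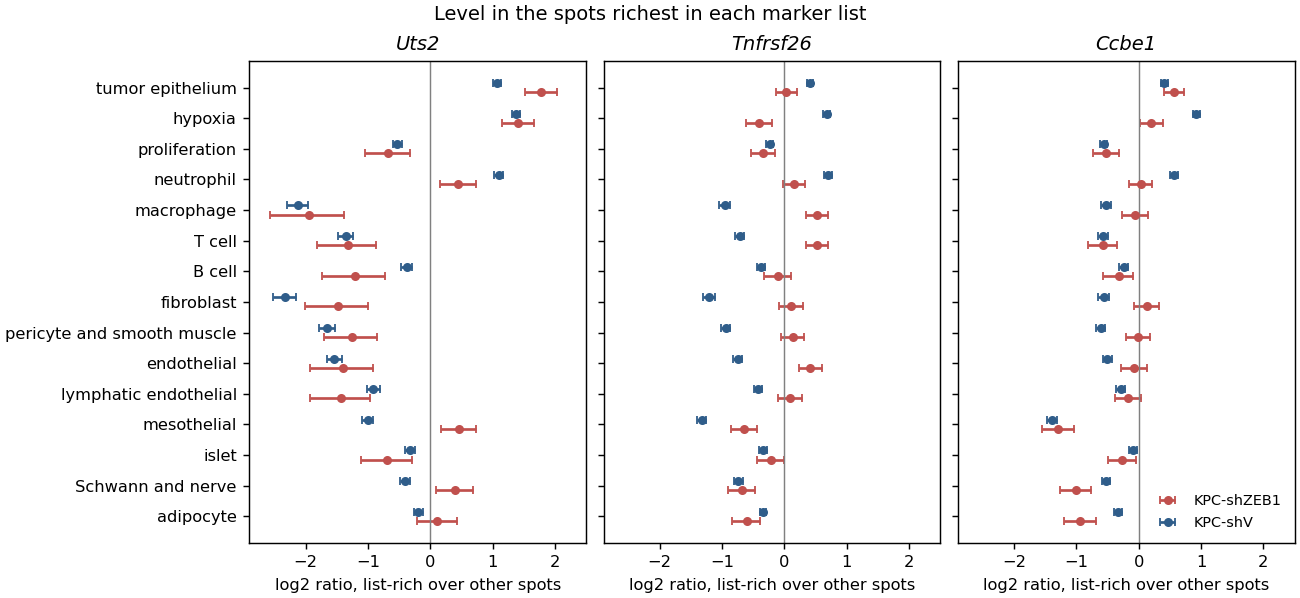
Log2 ratio of the level in list-rich spots over that in the other spots (x axis) for 15 marker lists (y axis), in the library labelled KPC-shZEB1 (red, 292 list-rich spots) and the library labelled KPC-shV (blue, 660 list-rich spots), with exact conditional binomial 95% intervals. The blue points lie above 0 for tumor epithelium, hypoxia and neutrophil lists in all 3 panels, and the red points for Tnfrsf26 lie above 0 for macrophage, T cell and endothelial lists, where the blue ones lie below 0.

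The list content of the sections itself differed. In the sections labelled KPC-shZEB1 and KPC-shV the hypoxia list stood at 568 and 1340.4 CPM (log2 ratio -1.24), the neutrophil list at 137 and 323 CPM (-1.24), the T cell list at 101 and 20.6 CPM (2.30) and the tumor epithelium list at 5823 and 6393 CPM (-0.13). The members were therefore set side by side at more similar list content, by cutting the spots of both libraries together into 5 quintiles of each list. Across hypoxia quintiles Uts2 went from 3.87 to 22.0 CPM where the label is KPC-shZEB1 and from 24.8 to 118 CPM where it is KPC-shV. The log2 ratio between the libraries stayed between -2.68 and -2.42 in all 5 quintiles, all closer to 0 than the -3.19 over all these spots. It was less even across the other lists cut this way, from -3.77 to -1.95 over tumor epithelium quintiles and from -3.23 to -2.32 over fibroblast quintiles. The highest hypoxia quintile held 51 spots labelled KPC-shZEB1 and 902 labelled KPC-shV. List content within a quintile was not matched further and can differ between the libraries. What part of the difference between the libraries goes with hypoxia content was not tested.

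Across the same hypoxia quintiles Tnfrsf26 went from 76.3 to 147 CPM in the library labelled KPC-shV but lay between 13.5 and 20.1 CPM in the library labelled KPC-shZEB1, so that its log2 ratio went from -1.96 in the lowest quintile to -3.18 in the highest. Across tumor epithelium quintiles its level with the label KPC-shV went from 25.8 CPM to 132 CPM, against 20.6 and 18.2 CPM in the library labelled KPC-shZEB1. In the spots poorest in epithelium the libraries were thus close, at a log2 ratio of -0.32 (-0.54 to -0.11). Ccbe1 lay between 13.9 and 25.4 CPM over hypoxia quintiles in the library labelled KPC-shZEB1 and went from 58.2 to 142 CPM in the other, with log2 ratios from -2.53 to -1.65. Within each of the 15 list-rich sets the log2 ratio between libraries was below 0 for all 3 genes, from -3.97 to -2.02 for Uts2, -3.47 to -1.26 for Tnfrsf26 and -3.05 to -1.82 for Ccbe1. The sets overlap, and the genes were chosen by this ratio over the same spots. Values below 0 in these subsets are therefore largely set by the choice.

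**Figure D3:**
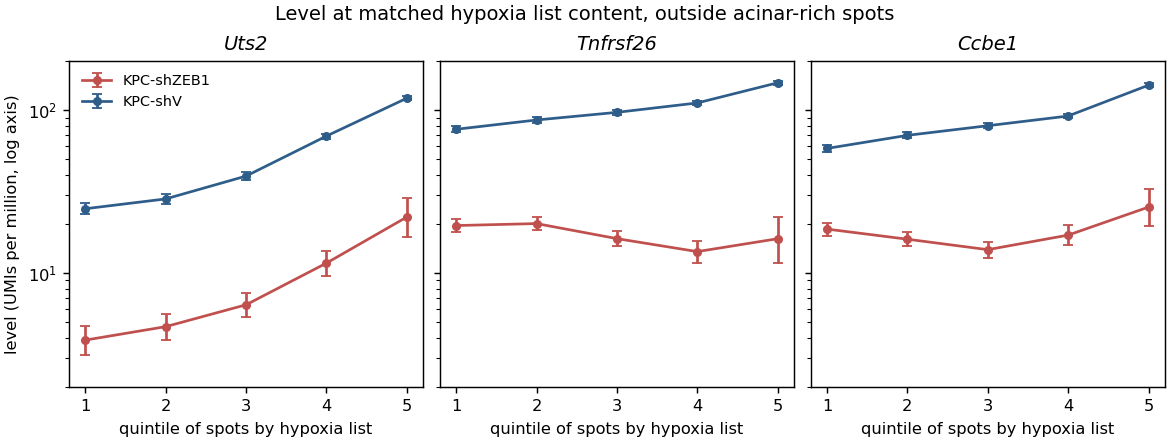
Level of each gene in CPM on a log axis (y axis) over 5 quintiles of spots by hypoxia list content, cut over both libraries together (x axis), in the library labelled KPC-shZEB1 (red) and the library labelled KPC-shV (blue), with exact Poisson 95% intervals. The Uts2 lines run side by side, from 3.87 to 22.0 CPM and from 24.8 to 118 CPM, while the red Tnfrsf26 line stays between 13.5 and 20.1 CPM.

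The genes that followed each member were ranked in the library labelled KPC-shV, by the correlation over its 3301 spots of depth-corrected counts (Pearson residuals) among 4682 other genes with at least 50 CPM there, and then read in the 1461 spots of the other library. Spots of 1 section share library, slide and tissue, so the correlations are given as a description. With the label KPC-shV, the median r over all genes was 0.02 for Uts2, 0.03 for Tnfrsf26 and 0.01 for Ccbe1, and the 99th percentile 0.46, 0.42 and 0.45. With the label KPC-shZEB1 the medians were 0.02, -0.01 and 0.01, so that an r above 0 is common among all genes there.

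Uts2 was followed most closely by Ccng2, an atypical cyclin of cells that stop dividing (r = 0.59), then by Prss22, a serine protease (0.56), Emp2, a membrane protein (0.56), Tgfa, a ligand of the EGF receptor (0.56), and Junb, an AP-1 subunit (0.55). Hk2, the hexokinase of glycolysis, Ddit4, a stress-induced inhibitor of mTOR, Smox, a polyamine oxidase, Lama3, a laminin chain, and Smurf1, a ubiquitin ligase, completed the 10, at 0.53 to 0.55. All 10 had an r above 0 in the library labelled KPC-shZEB1, from 0.24 to 0.41, and Ddit4 and Smox ranked 1 and 2 there. Hk2 and Ddit4 are known targets of the low oxygen response and are not in the hypoxia list used for the spots. The rest of the 10 were not checked for such targets, so this is not a count. Hk2 ranked 133 in the library labelled KPC-shZEB1. The share of such targets among the 10 or among all ranked genes was not counted. A link was not tested.

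Ccbe1 was followed by Pdgfa, a growth factor for fibroblasts (r = 0.69), by the laminin genes Lama3 (0.66) and Lamb3 (0.57), whose products are chains of basement membrane laminin, and by Prss22 (0.63) and Wnt7b, a Wnt ligand (0.60). Mab21l4 (0.58), Denr, a factor of translation (0.55), Acsbg1, a fatty acid activating enzyme (0.55), and Tnfrsf26 itself (0.53) also followed it. All 10 were above 0 in the library labelled KPC-shZEB1, where Prss22 ranked 1 (0.50), Pdgfa stood at 0.46 and Lama3 and Lamb3 stood at 0.46 and 0.41.

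Tnfrsf26 was followed by Wnt7b (r = 0.61), Plau, the urokinase plasminogen activator (0.58), Prss22 (0.56), Anxa1, an annexin (0.56), Fgd3 (0.55), Ccbe1 (0.53), Pfdn1, a chaperone subunit (0.53), Denr (0.52), Lamb1, a laminin chain (0.51), and Hbegf, a ligand of the EGF receptor (0.50). Plau ranked 1 in the library labelled KPC-shZEB1 (0.35), but Wnt7b stood at 0.14, Pfdn1 at 0.03 and Denr at -0.01. Of the 10 genes 9 were above 0 there, most of them at low values. At these sparse counts a weak correlation is no finding.

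Prss22 was the gene that followed all 3 members. Among themselves the members correlated at 0.38 (Uts2 with Tnfrsf26), 0.39 (Uts2 with Ccbe1) and 0.53 (Tnfrsf26 with Ccbe1) in the library labelled KPC-shV, and at 0.04, 0.16 and 0.28 in the library labelled KPC-shZEB1, where their counts were 5.40-fold to 9.16-fold lower per UMI. The following genes were themselves often lower in the library labelled KPC-shZEB1. A log2 ratio below -1 was seen for 7 of the 10 that followed Uts2, 4 of the 10 for Tnfrsf26 and 8 of the 10 for Ccbe1 (in each of the last 2 sets 1 of them is another member), against 1.96% of all genes with at least 50 CPM in the higher library. Their median log2 ratios were -1.04, -0.90 and -1.56. The following genes had to reach 50 CPM in the library labelled KPC-shV, which is an unlike limit. They were also picked for going along with genes chosen as low in the other library, so these counts are not independent of that choice. No test was made of these counts.

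**Figure D4:**
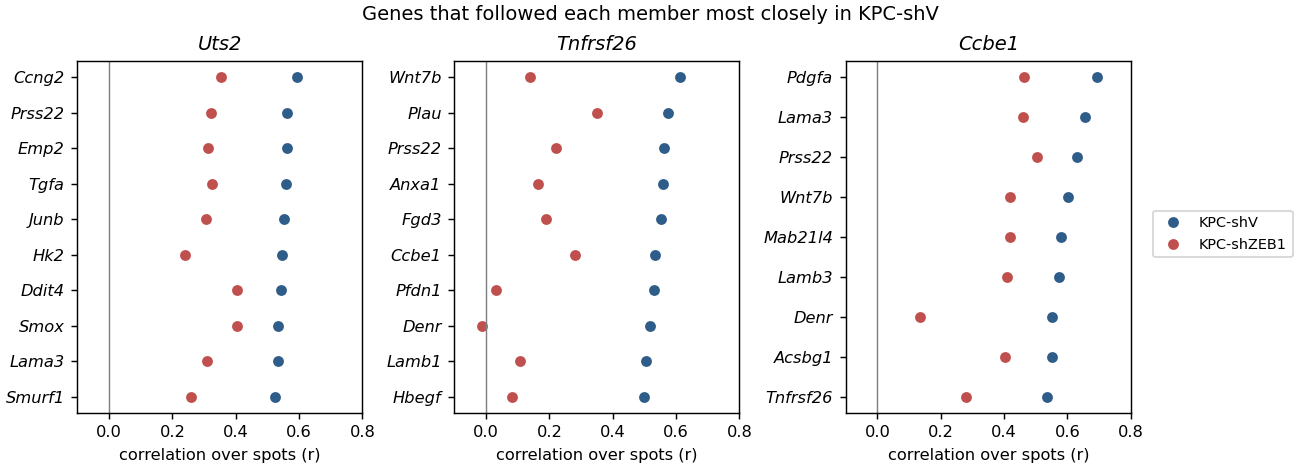
Correlation over spots (r, x axis) of each member with genes (y axis) among the 10 that followed it most closely in the library labelled KPC-shV (blue, 3301 spots), and the same correlation in the library labelled KPC-shZEB1 (red, 1461 spots). The red points of Uts2 and Ccbe1 all lie above 0, whereas those of Pfdn1 and Denr with Tnfrsf26 lie at 0.03 and -0.01.

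The other genes of the urotensin system were barely read. Uts2b, the related peptide, stood at 1.49 and 1.30 CPM in the libraries labelled KPC-shZEB1 and KPC-shV, and the receptor gene Uts2r at 0.655 and 0.652 CPM, both within the range of genes not expected here. Receptor RNA was thus not detectable above that background at this depth in either section.

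Among the genes of the TRAIL list, both neighbors of Tnfrsf26 were lower in the library labelled KPC-shZEB1 as well. Tnfrsf23 stood at 24.4 and 84.7 CPM (log2 ratio -1.80, -1.86 to -1.73) and Tnfrsf22 at 17.6 and 37.2 CPM (-1.08). The 3 receptors are close in sequence, and how far their probes are told apart was not tested. Over the spots labelled KPC-shV, r was 0.40 between Tnfrsf23 and Tnfrsf22, 0.23 between Tnfrsf23 and Tnfrsf26, and 0.08 between Tnfrsf26 and Tnfrsf22. In hypoxia-rich spots of the library labelled KPC-shZEB1, Tnfrsf23 was higher (log2 ratio 1.04) and so was Tnfrsf22 (0.60), unlike Tnfrsf26 (-0.41).

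The signalling receptor of TRAIL, Tnfrsf10b, stood at 37.9 and 39.9 CPM (log2 ratio -0.07), and the ligand gene Tnfsf10 at 19.0 and 7.33 CPM (1.38, 1.27 to 1.49). Tnfrsf11b, a soluble decoy of the ligand RANKL and of TRAIL, stood at 16.1 and 8.49 CPM (0.92). The intracellular genes Fadd, Casp8 and Cflar had log2 ratios of 0.03, -0.06 and -0.31. Of all 19 other Tnfrsf genes measured, 13 had a log2 ratio above 0 and 6 one below 0, the median was 0.35, and 2 were below -1, both beside Tnfrsf26. Over all 18896 genes with at least 100 UMIs in total 1.72% were below -1. The other end of the family was held by the B cell receptors Tnfrsf13c (1.53) and Tnfrsf13b (1.22) and by Tnfrsf18 (0.94), with the B cell list itself at 1.80.

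Of the VEGF-C list, only Ccbe1, which was chosen for its low ratio, had a log2 ratio below -1. Over all 18896 genes with at least 100 UMIs in total 1.72% were below -1, so finding none among the few others says little. Vegfc stood at 29.9 and 13.4 CPM (log2 ratio 1.15, 1.07 to 1.23), Vegfd, its closest relative, at 20.7 and 9.74 CPM (1.09) and Flt4, the receptor of both, at 10.95 and 7.59 CPM (0.53). The protease genes Adamts3 (2.22 and 1.78 CPM) and Adamts14 (4.02 and 2.98 CPM) were low in both libraries, with log2 ratios of 0.32 and 0.43. Kdr was at -0.23 and Nrp2, a co-receptor, at 0.06. The lymphatic endothelial list, which includes Flt4, stood at 38.9 and 16.1 CPM (1.28).

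Ccbe1 and the lymphatic growth factors were higher in different list-rich sets. With the label KPC-shV, Vegfd was higher in fibroblast-rich spots, at 58.3 against 3.48 CPM (log2 ratio 4.07), and so was Vegfc, at 31.2 against 11.1 CPM (1.49), where Ccbe1 was lower (-0.56). In hypoxia-rich spots Vegfd was lower (-1.93), Vegfc lower by a small margin (-0.32, -0.53 to -0.11) and Ccbe1 higher (0.92). With the label KPC-shZEB1, Vegfd was lower in hypoxia-rich spots (-1.25), but Vegfc was level with the other spots (-0.04, -0.19 to 0.10). The library labelled KPC-shZEB1 gave the same direction for Vegfd (2.46) and Vegfc (0.94) in fibroblast-rich spots, while Ccbe1 there was level with the other spots (0.13, -0.07 to 0.33).

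In the genome the members lie apart (GRCm38). Uts2 (ENSMUSG00000028963) lies on chromosome 4 from 150997097 to 151001810 on the plus strand, Tnfrsf26 (ENSMUSG00000045362) on chromosome 7 from 143607659 to 143628722 on the minus strand, and Ccbe1 (ENSMUSG00000046318) on chromosome 18 from 66045302 to 66302741 on the minus strand. None of the 9 measured genes within 500 kb of Uts2 had a log2 ratio below -1, and the lowest was Tnfrsf9, an activation receptor of T cells, at -0.92. Of 8 genes beside Ccbe1 none was below -1 either, with Pmaip1, a cell death gene, lowest at -0.83 and Sec11c highest at 0.54. Beside Tnfrsf26, 2 of the 14 genes with at least 100 UMIs were below -1, Tnfrsf22 and Tnfrsf23, and the median of the 14 was -0.23. Over all 18896 genes with at least 100 UMIs in total, 1.72% were below -1. Finding none among so few genes beside Uts2 or Ccbe1 therefore says little.

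**Figure D5:**
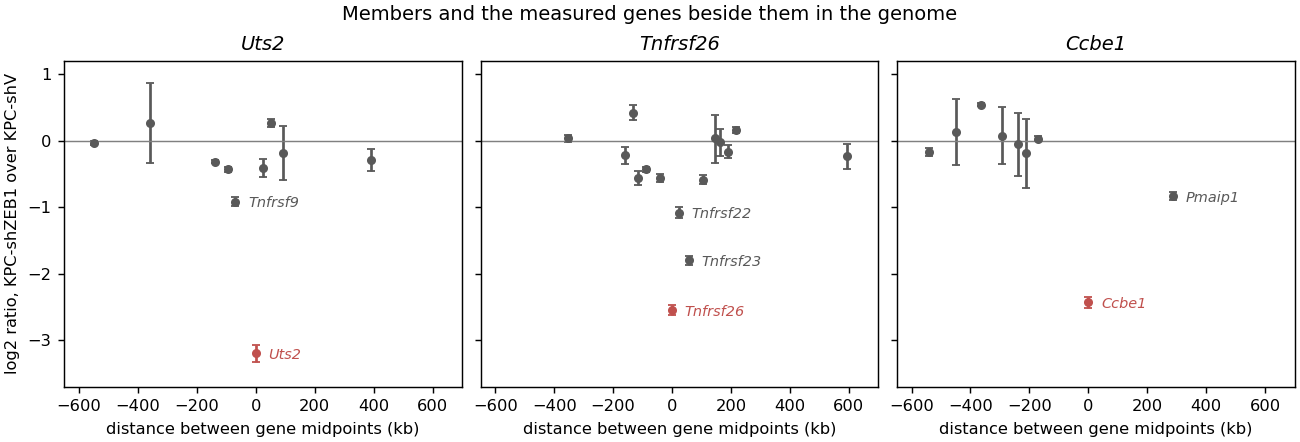
Log2 ratio between the libraries, KPC-shZEB1 divided by KPC-shV (y axis), of each member (red) and of the measured genes with a body within 500 kb of it and at least 100 UMIs (gray), by the distance between gene midpoints in kb (x axis), with exact conditional binomial 95% intervals. Only Tnfrsf26 has neighbors below -1, Tnfrsf23 at -1.80 and Tnfrsf22 at -1.08.

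The sequence before the start of Uts2, the member with the lowest ratio, is shown because the motifs known for Zeb1 and for the low oxygen response were searched in it. It was taken from RefSeq (GRCm38.p6, chr4:150996847-150997096, plus strand) and holds the 250 bases before the start of the gene, in lower case, with capitals reserved for motif matches.
Uts2: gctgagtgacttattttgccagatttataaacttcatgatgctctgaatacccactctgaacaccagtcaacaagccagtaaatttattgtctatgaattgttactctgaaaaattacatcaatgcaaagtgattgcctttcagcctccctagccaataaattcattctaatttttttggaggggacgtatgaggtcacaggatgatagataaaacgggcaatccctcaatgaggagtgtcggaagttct
Searched on both strands, the E-box CAGGTG that Zeb1 is known to bind and the core ACGTG of the hypoxia response element had 0 matches each. Of 32851 promoter windows of the same length, 17.2% held the first and 16.6% the second. This says only that these letters are not in this window.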

How the data were processed

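Probe-based Visium CytAssist libraries were made by the authors from frozen, methanol-fixed sections, and the submitters' processing notes name Space Ranger 2.0.1 and mm10. The deposited values are raw UMI counts, not normalized, for each gene in each spot of 2 libraries (KPC-shZEB1 and KPC-shV, 1 each). From the deposited counts, a level was the UMIs of a gene over all UMIs of the chosen spots, in CPM, with an exact Poisson interval. Log2 ratios had exact conditional binomial intervals and shares exact binomial ones, at the 95% level, and none covers differences between tumors. Acinar-rich spots had over 20% of UMIs from 20 of 26 acinar genes found in the feature list. Krt18, Ccnb1 and Ccl21a, also listed, were not found. Correlations used Pearson residuals of a negative binomial model (theta 100, clipped). A share of 0 would allow up to 3 spots. Gene positions came from GENCODE M21, matched by Ensembl identifier for 19451 of 19465 features.

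Named are the members, the genes of the 3 pathway lists, the extremes of the Tnfrsf family, the 10 genes that followed each member (1 of those for Ccbe1 is not reported here), measured genes within 500 kb and the 10 lowest ratios. The members and lists were chosen with earlier results of these data known. Alternatives changed the acinar limit (5% or 40%, or all spots), the scaling, the thinning, the list limit (top 10%), the depth minimum and the correlation, and the ratio per tumor epithelium UMI and the average over all thinnings were added after seeing the data. Levels and correlations were tested on simulated data. The tools were numpy 2.4.6 and scipy 1.17.1, with matplotlib 3.10.9 for plots, run in Python 3.11.15. Spot coordinates and section images were not used here.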

Additional observations from a re-analysis of the deposited data

Results flagged for a closer look

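Uts2 and Tnfrsf26 had ratios of list-rich over other spots that lay on opposite sides of 0 in the libraries labelled KPC-shZEB1 and KPC-shV, each with an interval for counting error that did not reach 0. For Uts2 these were the mesothelial list (0.45 and -1.001 on the log2 scale) and the Schwann cell and nerve list (0.39 and -0.41). For Tnfrsf26 they were the hypoxia list (-0.41 and 0.68), the macrophage list (0.52 and -0.96), the T cell list (0.52 and -0.72) and the endothelial list (0.42 and -0.75). With one limit for both libraries the hypoxia ratio labelled KPC-shZEB1 was -0.15 (-0.64 to 0.31), and with the top 10% of spots the endothelial one was 0.26 (-0.02 to 0.52) and the mesothelial one of Uts2 -0.19 (-0.65 to 0.23), so that these 3 intervals reached 0. Mesothelial-rich spots were also epithelium-rich in 51.4% and 23.9% of cases, respectively. Macrophage-rich spots labelled KPC-shZEB1 were also T cell-rich in 51.7% and endothelial-rich in 51.4% of cases, so these lists are not separate results. The limits of the Schwann cell and nerve list were low, at 43.4 and 32.7 CPM. Those of the T cell list were unlike, at 169 and 38.6 CPM. In spots with at least 20000 UMIs the Tnfrsf26 macrophage, T cell and endothelial ratios labelled KPC-shV were -0.56, -0.62 and -0.70. With 1 library per group the differences between libraries were not tested. Beside them, median depth in the macrophage-rich spots was 47729.5 UMIs in the library labelled KPC-shZEB1 and 27484 UMIs in the library labelled KPC-shV.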

How the results depend on the processing

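No paired analysis was possible because each group had 1 library. The 3 genes had been picked for being lowest in these same counts, so low values under the alternatives were largely set by that choice. The alternatives therefore show only how far the values moved, and are no independent check of the difference. The log2 ratios of KPC-shZEB1 over KPC-shV stayed below -2 for all 3 genes under every alternative run. They were -3.81 (Uts2), -3.14 (Tnfrsf26) and -2.71 (Ccbe1) over all spots, -3.72, -2.70 and -2.79 without the 5% of spots with the highest level, and -3.06, -2.42 and -2.30 per UMI of the tumor epithelium list. Averaged over spots, each at its own CPM, they were -2.68 for Tnfrsf26 and -2.65 for Ccbe1. Genes below -2 numbered 17 with at least 20 CPM, 37 with at least 100 UMIs and 38 over all spots, against 6 of 4998 (0.12%). The numbers of genes tested under these alternatives are not given here. The counts are therefore not shares of like pools, and a higher count is not read as a result. The ranks of the members among these genes are not given here either.

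Shares of spots depended on depth, as the thinning sets it. For the libraries labelled KPC-shZEB1 and KPC-shV they were 22.7% and 66.1% (Uts2), 53.1% and 79.5% (Tnfrsf26) and 43.3% and 77.6% (Ccbe1) without thinning, 10.3% and 53.0%, 25.5% and 70.9%, and 23.4% and 66.5% at 20000 UMIs, and 0.275% and 4.99%, 0.961% and 13.02%, and 0.618% and 9.50% with at least 2 UMIs. For Tnfrsf26 labelled KPC-shZEB1 another random thinning gave 7.76% and the average over all of them 8.09%.

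In the library labelled KPC-shZEB1, lists were counted whose ratio of list-rich over other spots lay above 0 with its interval. They went from 5 to 3 for Uts2 with the top 10% of spots and from 2 to 1 for Ccbe1 with spots of at least 20000 UMIs. For Tnfrsf26 they went from 3 to 2 with the top 10%, which lost the endothelial list, and to 4 with one limit for both libraries. Uts2 in mesothelial-rich spots turned to -0.19 with the top 10%. Of the 10 genes following Uts2, 4 were kept by Spearman correlation and 4 on the log2 scale, and of those following Tnfrsf26, 5 and 4. The gene ranked first was passed as well. For Uts2, Prss22 stood above Ccng2 by Spearman correlation (0.60 against 0.58) and on the log2 scale (0.57 against 0.53). For Tnfrsf26, Prss22 stood above Wnt7b in the same way (0.62 against 0.61, and 0.59 against 0.56). The cause was not tested. With 1 library per group, differences between tumors, sections and slides cannot be told apart from the hairpin.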
